A study of Homo sapiens with 4 samples.

Results

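KCNK1 was followed across 4 cultures of BJ-TE cells, a line derived from human BJ foreskin fibroblasts, each measured on 1 Affymetrix expression array. All probe sets annotated to KCNK1 and to no other gene were taken, which gave 2 of the 22277 probe sets on the array for 1 of 11963 genes. They are 204679_at, called the brighter set here, and 204678_s_at, the dimmer set. The 4 groups had 1 array each. Cells at 100% and at 40% confluence carried a short hairpin RNA (shRNA) that targets p73, a transcription factor. Other cells at 100% and at 40% confluence carried the control hairpin labelled ns. All 4 groups thus carried a hairpin. The sample titles say p73 shRNA and do not say whether this was a single hairpin or several. The labels do not say that the cultures were independent. No group had a replicate, so every ratio of 2 arrays stands without an error, and the number of arrays limits the precision.

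KCNK1 encodes TWIK-1, a subunit of the tandem pore domain potassium (K2P) channels. Each K2P subunit carries a pair of pore-forming loops, the subunits pair to form a channel, and the open channels let potassium leak out of the cell and hold the resting membrane potential negative. TWIK-1 is known for a weak current at the cell surface, for recycling through endosomes with the GTPase ARF6, and for control by conjugation of the small protein SUMO. p73 belongs to the p53 family of transcription factors, which bind a repeated half-site in DNA, and KCNK1 has been proposed as one of its targets. The arrays measured transcript level and not the binding of p73 to the gene.

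The region just before the start of KCNK1 is shown because the question put to this gene is one of transcription. It covers the 250 bases upstream of the annotated start, chr1:233613856-233614105 on the plus strand of GRCh38.p14, from RefSeq. Capitals mark the matches to CCAAT and to GGGCGG.

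KCNK1 upstream region: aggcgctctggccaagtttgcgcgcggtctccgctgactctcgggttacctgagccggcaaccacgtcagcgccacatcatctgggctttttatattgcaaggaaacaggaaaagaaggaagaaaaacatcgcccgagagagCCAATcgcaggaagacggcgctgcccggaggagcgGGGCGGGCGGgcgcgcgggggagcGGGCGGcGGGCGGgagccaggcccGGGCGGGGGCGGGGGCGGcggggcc

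The window has a GC content of 69.2%, against a median of 58.0% over the same window of 35116 annotated starts (chromosome 8 left out). GGGCGG, the core of a GC box, occurred 7 times, all on the plus strand and some overlapping each other, between 73 and 13 bases before the start. Searched on both strands, at least 1 copy was found in 42.6% of all windows and 7 or more in 1.12%. CCAAT occurred once, 108 bases before the start, and 32.0% of windows held it. The p53 family half-site had 0 matches on either strand and was found in 5.57% of windows. These are matches of letters in a short window and describe neither a bound site nor its absence elsewhere in the gene.

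Markers placed the cells with fibroblasts: all 10 fibroblast markers lay above the brightness filter used below. Of 21 measured markers of epithelial, endothelial, blood and neural cells, 1 did so, the keratin KRT18, and the other 20 had intensities of 1.06 to 105 on any array. The deposited values share a common trimmed mean on all 4 arrays, and median intensity was 119.6 (p73 shRNA) and 122 (ns) at 100% confluence and 105 and 106 at 40%. The 99th percentile was 10869 and 13157 on the p73 shRNA arrays at 100% and 40% and 10196 and 11420 on the ns arrays. The ratio of 3' over 5' control probe sets of beta-actin was 1.38 and 1.09 with p73 shRNA and 1.47 and 1.24 with ns shRNA, higher at 100% confluence in each pair. The median of the ribosomal RNA control probe sets was 281 and 272 with p73 shRNA and 340 and 638 with ns shRNA at 100% and 40%, so the ns array at 40% stood apart; it enters the hairpin ratios at 40% and the confluence ratios with ns shRNA, and its part in them was not tested. TP73 gave no check of the hairpin, since its 1 named probe set read 2.04 and 2.09 with p73 shRNA and 1.65 and 1.68 with ns shRNA, at or below the 3.84th percentile of its arrays.

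KCNK1 transcript was lower on both arrays with p73 shRNA than on the ns array of the same stage, and higher at 100% than at 40% confluence with either hairpin. On the brighter set, intensity at 100% confluence was 96.7 with p73 shRNA and 421 with ns shRNA. At 40% confluence it was 30.0 with p73 shRNA and 149.9 with ns shRNA. Both p73 shRNA arrays therefore lay below both ns arrays. The share of all genes ordered in this way was not counted, so the order by itself says little. As plain ratios of intensity, KCNK1 with p73 shRNA was 0.230 of the ns level at 100% confluence and 0.200 of it at 40%. The reading of 30.0 lies at percentile 31.2 of its array and that of 96.7 at percentile 47.2, so these arrays bound the size of each ratio only loosely, the one at 40% most of all. In a bulk sample, fewer cells that express the gene and less RNA per cell cannot be told apart.

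**Figure D1:**
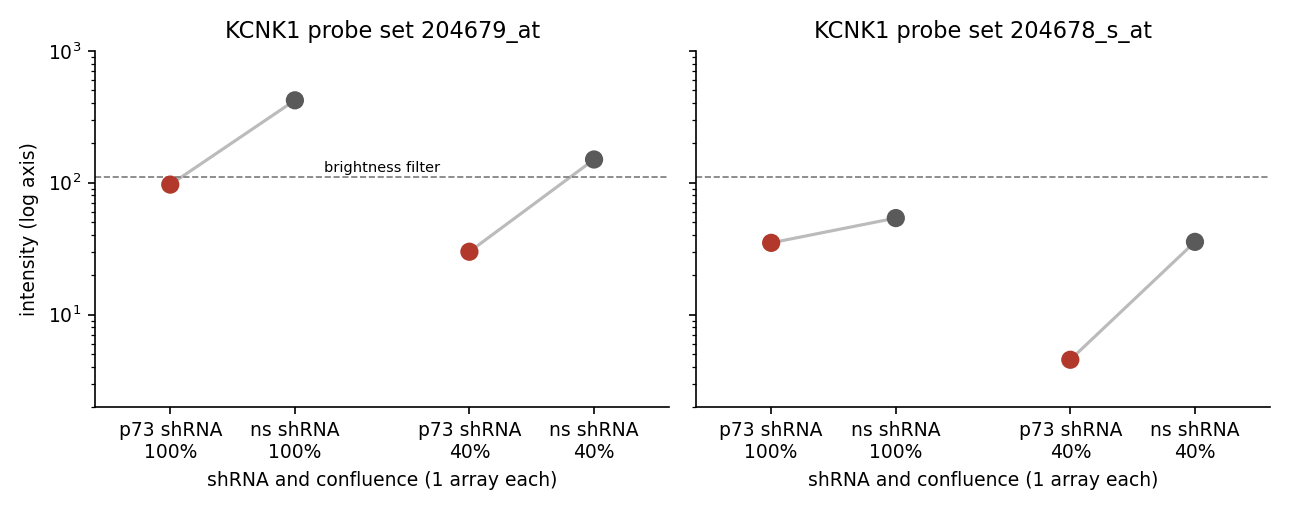
Intensity (log axis) of both KCNK1 probe sets on each of the 4 arrays, with 1 point per array and a line joining the hairpins at the same stage. On the brighter set (left) both p73 shRNA points lie at 30.0 and 96.7, under the dashed brightness filter, and both ns points at 149.9 and 421 lie above it, while all points of the dimmer set (right) lie under it.

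The suffix in the name of the dimmer set is given by Affymetrix to sets whose probes can match more than 1 transcript. This set read 35.0 with p73 shRNA and 53.9 with ns shRNA at 100% confluence, and 4.55 with p73 shRNA and 35.6 with ns shRNA at 40%. It was lowest on the p73 shRNA array at 40% confluence, and the p73 shRNA array at 100% was close to the ns array at 40%, so the order of hairpins held within each stage but the 4 arrays did not separate by hairpin as clearly. Its ratio of p73 shRNA to ns was 0.649 at 100% and 0.128 at 40%. The lowest reading lies at percentile 10.3 of its array, where intensity says little about the amount of transcript, and the other 3 lie between percentiles 33.5 and 39.6.

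To set these differences against an error, intensities were taken as log2(intensity + 11.6), which understates the change of dim genes, and fitted across 6759 genes with limma in a model with a term for the hairpin and a term for confluence. Without replicates, that error is the departure of the arrays from the additive terms, pooled over genes, and not a spread between replicate cultures. Each gene was represented by its brightest probe set and kept when its mean over the arrays was at least the median over probe sets, 6.94 on that scale or an intensity of about 111. KCNK1 passed at 7.06 on its brighter set, with 124 of the genes kept lying closer to the filter. It passed through the ns arrays, whose mean was 8.05 against 6.07 on the p73 shRNA arrays, which alone would have left it out.

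On that log2 scale KCNK1 differed by -2.00 at 100% confluence and by -1.96 at 40%, p73 shRNA minus ns. The average of both stages was -1.98 (SE 0.30, 95% interval -2.56 to -1.40). KCNK1 fell by this test among the 6759 genes past the filter (limma adjusted p 1.94e-08), where 1.58% of all genes tested fell and 2.72% changed in either direction. It did not pass among all 11963 genes without the filter (limma adjusted p 0.132). Its level with p73 shRNA lay below the filter, so KCNK1 was among the filtered genes only through its ns arrays. Among the filtered genes ACTG2, an actin of smooth muscle, and the adhesion molecule CADM1 had a lower average ratio. CADM1 also lay under the filter with p73 shRNA and did not pass the test without the filter (limma adjusted p 0.112). KCNK1 therefore ranked 3rd from the lowest, and without the filter it ranked 5th. By single stages it ranked 4th from the lowest of the filtered genes at 100% and 5th at 40%. ACTG2 was the 1 other gene lower by at least 1.96 at both stages. Among the filtered genes the prior degrees of freedom were infinite when the spread followed intensity. The p-value therefore takes the spread pooled over genes of like brightness as known. With no such trend the adjusted p from limma was 6.28e-06. The call also ended with confluence left out of the model (limma adjusted p 1.00), and with the dimmer set in place of the brighter one (average -1.02, SE 0.53, limma adjusted p 0.383).

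On the log2 scale, which adds a constant to each intensity, the hairpin ratio was close at both stages, with the same dim reading behind the one at 40%. The ratio at 100% minus that at 40% was -0.04 on the log2 scale for the brighter set, and 8.79% of the genes tested had a smaller difference in either direction, with a median size of 0.24. This difference has no test, since each stage has 1 array per hairpin. It also depends on the added constant, which weighs most on the dim reading. As plain ratios of intensity the brighter set had 0.230 at 100% and 0.200 at 40%, so the order of the stages was the opposite there. The closeness of the stages with other constants was not tested. On the dimmer set the log2 ratios were -0.49 at 100% and -1.55 at 40%. The likeness of the stages on that scale was therefore seen on the brighter set and not on the dimmer one.

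**Figure D2:**
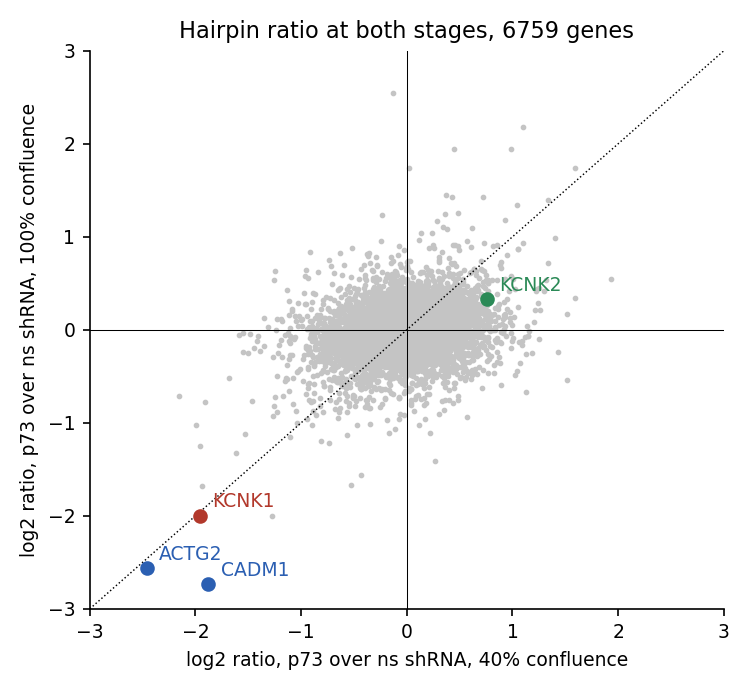
Log2 ratio of p73 shRNA over ns shRNA at 100% confluence (vertical axis) against that at 40% (horizontal axis), 1 point for each of 6759 genes, with the dotted line where both are equal. With the constant added to each intensity, KCNK1 sits on the line at -1.96 and -2.00. It lies near ACTG2 and CADM1 and away from the bulk of genes, and KCNK2 sits on the other side of 0.

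Confluence moved KCNK1 the other way. With p73 shRNA its intensity was 96.7 at 100% confluence and 30.0 at 40%, a ratio of 3.23 that rests on the dim reading of 30.0, and with ns shRNA it was 421 and 149.9, a ratio of 2.81. On the log2 scale KCNK1 rose by 1.38 with p73 shRNA and by 1.42 with ns shRNA, for an average of 1.40 (SE 0.30, 95% interval 0.82 to 1.98, limma adjusted p 2.50e-05). KCNK1 passed the filter of 6.94 through its 100% arrays. At 40% it stood at 5.38 with p73 shRNA and 7.34 with ns shRNA, and their mean lay under the filter. Without the filter the confluence call had a limma adjusted p of 0.0235. At confluence 20.4% of all genes tested rose and 36.6% changed in either direction, so a call in this comparison is common, and 130 genes had a higher average ratio than KCNK1. The dimmer set had an average of 1.00 (SE 0.53, limma adjusted p 0.128) when it stood for the gene, and did not pass. The call was also lost with the hairpin left out of the model (limma adjusted p 0.193).

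The 4 levels of KCNK1 on the brighter set therefore ran from p73 shRNA at 40%, the lowest, through p73 shRNA at 100% and ns shRNA at 40%, to ns shRNA at 100%, the highest. The outer steps of that order are the confluence differences given above. The middle step sets confluent cells with p73 shRNA (96.7) against 40% confluent cells with ns shRNA (149.9). KCNK1 was at -0.58 there (SE 0.42, 95% interval -1.40 to 0.25, limma adjusted p 0.382), in a comparison in which 17.5% of genes were called. These neighbours did not differ beyond the pooled error of the model, and the interval still allows a difference of more than 2-fold.

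**Figure D3:**
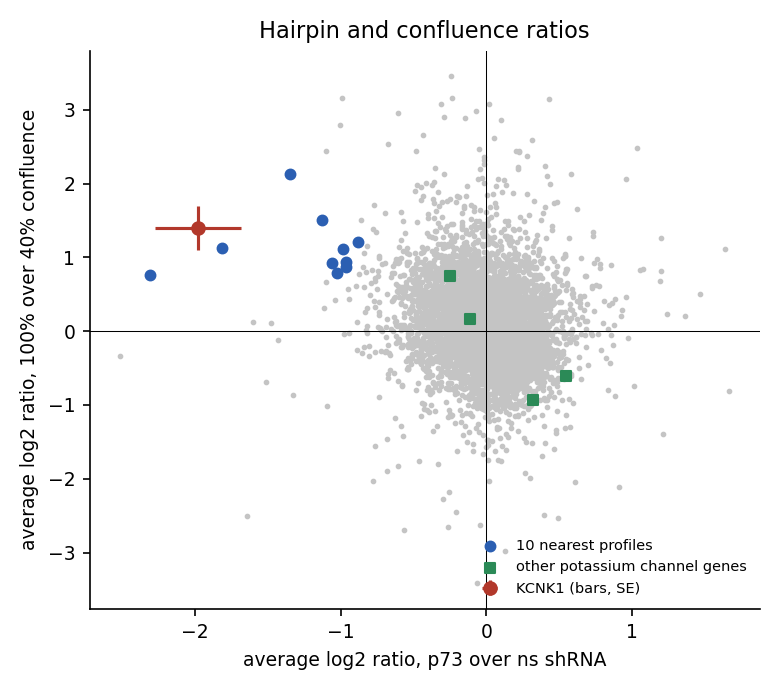
Average log2 ratio of 100% over 40% confluence (vertical axis) against that of p73 over ns shRNA (horizontal axis) for 6759 genes in grey, with KCNK1 and its SE in red, the 10 genes with the nearest profiles in blue and 4 other potassium channel genes as green squares. KCNK1 lies at -1.98 and 1.40, to the upper left of the bulk, and the 4 other potassium channel genes lie within it.

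The rest of the K2P family gave little signal. Of its 15 genes 9 had a probe set named for them alone, and 2 passed the brightness filter, KCNK1 and KCNK2. KCNK2 encodes TREK-1, a K2P channel opened by membrane stretch and by lipids. It read 214 with p73 shRNA and 168 with ns shRNA at 100% confluence, and 385 with p73 shRNA and 223 with ns shRNA at 40%, so it was higher with p73 shRNA within each stage although the arrays of both hairpins overlap. Its average log2 difference between the hairpins was 0.54 (SE 0.24, limma adjusted p 0.238) and did not pass. At confluence KCNK2 fell by 0.60 (limma adjusted p 0.0325), as 16.1% of all genes tested fell, a direction opposite to that of KCNK1; the difference between both genes was not tested. The KCNK2 call was lost without the brightness filter (limma adjusted p 0.148) and with the hairpin left out of the model (limma adjusted p 0.165).

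The 7 other K2P genes, each with 1 probe set, stayed below the filter with intensities of 0.965 to 42.6 on any array. These were KCNK3 and KCNK15, of the acid-sensitive TASK branch by sequence, KCNK5, the alkaline-activated TASK-2, KCNK7, a relative of TWIK-1, KCNK10, a relative of TREK-1, and the THIK channels KCNK12 and KCNK13. At such intensities neither absence nor a change can be read. KCNK7 read 5.55 with p73 shRNA and 7.16 with ns shRNA at 100%, and 42.6 with p73 shRNA and 11.3 with ns shRNA at 40%, and its probe set name carries the suffix for probes that can bind unrelated transcripts. KCNK15 read 8.41 and 31.8 with p73 shRNA and 1.05 and 0.965 with ns shRNA at 100% and 40%.

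Among all other potassium channel genes, 94 including K2P, inward rectifier, voltage-gated and calcium-activated channels and their auxiliary subunits, 65 were measured and 4 passed the filter. None of the 4 was called with p73 shRNA (limma), against a background of 2.72%, and 1 of them, KCNK2, had an unadjusted p below 0.05 (p 0.0211). Among all 6759 genes tested, 922 had an unadjusted limma p below 0.05 in this comparison. The large-conductance calcium-activated channel KCNMA1 read 972 and 905 with p73 shRNA and 1103 and 935 with ns shRNA at 100% and 40%, an average log2 difference of -0.11 (SE 0.16, limma adjusted p 0.857). The auxiliary subunits KCNAB2 and KCNE4 averaged -0.25 and 0.32 (limma adjusted p 0.804 and 0.708). At confluence KCNAB2 rose by 0.75 and KCNE4 fell by 0.93, and both calls were lost without the filter (limma adjusted p 0.188 and 0.0807), that of KCNAB2 also after quantile normalization (limma adjusted p 0.124) and with the hairpin left out of the model (limma adjusted p 0.0829). Each had passed the filter through the stage where it was high. The median of the 4 with p73 shRNA was 0.10, against -0.00 for all genes tested. All 14 inward rectifier and 25 voltage-gated genes measured were below the filter, and the 61 genes below it reached at most an intensity of 185, on KCNN4, an intermediate-conductance calcium-activated channel, which read 101 and 14.3 with p73 shRNA and 185 and 55.4 with ns shRNA at 100% and 40%.

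Potassium leak works together with the pumps and other channels that set the membrane potential. Over all genes tested 2.72% were called with p73 shRNA, and the counts in these short lists are too small to be told from that share. The background for an unadjusted limma p below 0.05 was 922 of 6759 genes. Of 6 tested genes of pumps and cation-chloride cotransporters none passed (limma, median -0.03, 3 with an unadjusted p below 0.05), with SLC12A7, a potassium-chloride cotransporter, at 0.78 (limma adjusted p 0.145) and ATP1B1, a sodium pump subunit, at -0.37 (limma adjusted p 0.187). Without the intensity trend SLC12A7 did pass (limma adjusted p 0.0467). Of 8 chloride channel genes none passed (limma, median -0.03, 0 with an unadjusted p below 0.05). Of 9 calcium and TRP channel genes 1 fell and none rose (median -0.04): PIEZO2, a mechanically opened cation channel, read 185 and 59.0 with p73 shRNA and 425 and 141 with ns shRNA at 100% and 40%, an average of -1.13 (SE 0.27, limma adjusted p 0.00299). PIEZO2 passed the filter through the ns arrays, with a mean of 6.88 on the log2 scale on the p73 shRNA arrays, and its call was lost without the filter (limma adjusted p 0.377) and with confluence left out of the model (limma adjusted p 1.00).

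**Figure D4:**
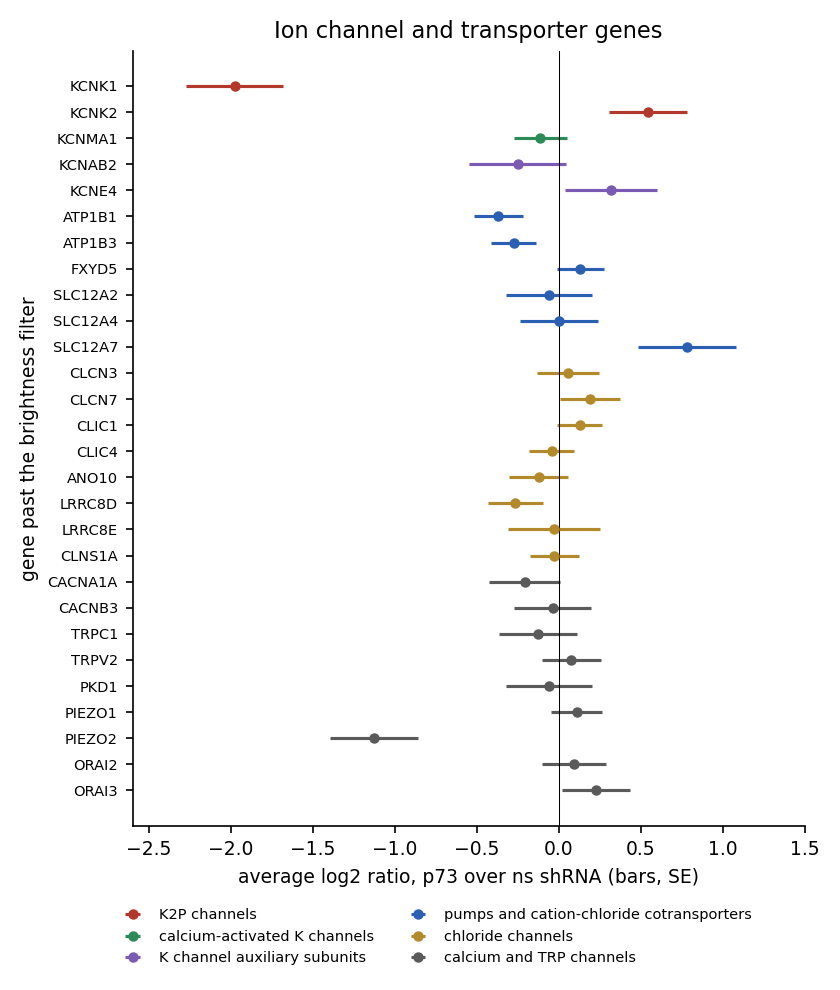
Average log2 ratio of p73 over ns shRNA with its SE from the limma fit for the 28 channel, pump and cotransporter genes past the brightness filter, coloured by list. KCNK1 at -1.98 and PIEZO2 at -1.13 stand to the left, and the other genes lie between -0.37 and 0.78.

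Genes of the routes that handle the TWIK-1 protein gave no call with p73 shRNA, and counts of 0 in lists this short say nothing particular about them beside the 2.72% called over all genes. Their counts with an unadjusted limma p below 0.05 stand beside 922 of all 6759 genes. Of 9 tested genes of the SUMO pathway 0 were called (limma, median 0.05, 1 with an unadjusted p below 0.05), and SENP6, a SUMO protease, had the largest difference at -0.36 (limma adjusted p 0.318). Of 10 genes of the ARF6 endocytic cycle 0 were called (limma, median -0.01, 3 with an unadjusted p below 0.05). GIT2 had the largest difference of these at 0.59 (limma adjusted p 0.206), followed by ACAP2 at -0.39 (limma adjusted p 0.261). ARF6 itself read 1448 and 969 with p73 shRNA and 1555 and 1520 with ns shRNA at 100% and 40%, an average of -0.37 (limma adjusted p 0.208).

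The other p53 family targets had no shared direction with p73 shRNA. Of 32 other targets past the filter, from 41 measured, 1 fell, 2 rose and 29 did not pass, and the median was 0.03; over all genes tested 1.58% fell, 1.14% rose and 2.72% were called. The 3 called each passed the filter through the hairpin where they were high, with a mean below 6.94 on the log2 scale on the other pair of arrays, so their count is given as a description. JAG1, a Notch ligand, fell: it read 71.4 and 84.2 with p73 shRNA and 158 and 371 with ns shRNA at 100% and 40% (average -1.51, SE 0.28, limma adjusted p 2.52e-05). TRIM22, an antiviral ubiquitin ligase, rose by 1.20 (limma adjusted p 0.00144) and PIDD1, a death-domain scaffold, rose by 1.24 (limma adjusted p 0.00207). All 3 calls were lost without the brightness filter (limma adjusted p 0.347 for JAG1, 0.377 for TRIM22 and 0.473 for PIDD1) and with confluence left out of the model (limma adjusted p 1.00 for each). CDKN1A, the cell cycle inhibitor p21, read 813 and 191 with p73 shRNA and 681 and 197 with ns shRNA at 100% and 40%, an average of 0.11 (SE 0.20, limma adjusted p 0.896). At confluence 11 of the 32 rose and 8 fell, where 20.4% and 16.1% of all genes tested did. CDKN1A rose with confluence by 1.88, as KCNK1 did by 1.40, while only KCNK1 of this pair passed the test for the hairpin; the difference between both genes was not tested.

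The genes whose pattern over the 4 arrays was most like that of KCNK1 were found by the distance between log2 profiles, each centred on its own mean, among 6758 genes. IGFBP5, which binds insulin-like growth factors, was nearest at a distance of 0.36, where the median gene lay at 2.44 and the length of the KCNK1 profile itself was 2.42. IGFBP5 read 486 and 197 with p73 shRNA and 1586 and 791 with ns shRNA at 100% and 40%, and its profile correlated with that of KCNK1 at r = 0.996 over the 4 arrays. CADM1 (0.83) and PIEZO2 (0.85) followed. The remaining 7 lay at distances of 1.06 to 1.15: the golgin GOLGA8A, the ataxin ATXN1, the interleukin receptor subunit IL1RAP, the ubiquitin ligase MARCHF6, the proteoglycan LUM, the secreted chaperone CLU and the retinol dehydrogenase RDH11. CADM1, PIEZO2 and IL1RAP passed the brightness filter through the ns arrays, and IL1RAP was not called with p73 shRNA (limma adjusted p 0.0742). For each of the 10 the level with p73 shRNA was below that with ns shRNA at both stages, and the level at 100% was above that at 40% with both hairpins, which choosing by likeness to KCNK1 favours. With 4 arrays many genes correlate closely, and 178 had r above 0.95, so the correlation is a description and carries no test.

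**Figure D5:**
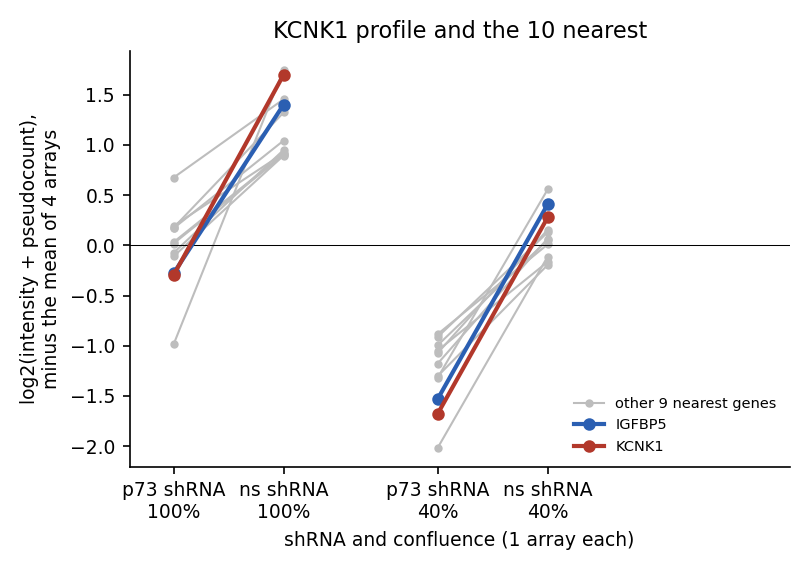
Log2(intensity + pseudocount) minus the mean of the gene over the 4 arrays, for KCNK1 in red, IGFBP5 in blue and the other 9 nearest genes in grey, with lines joining the hairpins of a stage. KCNK1 lies at -1.68 with p73 shRNA at 40% and at 1.70 with ns shRNA at 100%, and IGFBP5 follows it most closely, at a distance of 0.36.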

How the data were processed

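Total RNA came from a trizol extraction and was biotin-labelled for Affymetrix arrays, per the labels' protocols. The deposited table gives 1 linear intensity per probe set and array; the summarising software was not given in the sources used here. From the values, the arrays share a mean of 500.1 to 500.2 once the top and bottom 2% are trimmed, and a shift of most genes together would not show. Groups came from the sample titles. The errors, intervals and p-values cover only the departure of the 4 arrays from additive hairpin and confluence terms, pooled over genes. That departure may be technical, and no error between replicate arrays or cultures was measured.

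The 62 control probe sets were left out of the tests. Of the others 19064 had 1 gene symbol in the array annotation, 1043 several and 2108 none listed; 19052 got their current symbol through the Entrez ID. Values were converted to log2(intensity + 11.6), the 20th percentile, and 6759 of 11963 genes passed the brightness filter. limma 3.58.1 in R 4.3.3 fitted hairpin and confluence as additive terms with 1 residual degree of freedom, moderation with an intensity trend and two-sided tests, adjusted by Benjamini-Hochberg (threshold 0.05). The code was also run on data simulated from the same additive model, which cannot check that model for arrays without replicates. With no trend, limma estimated 15.8 prior degrees of freedom. Upstream sequence came from RefSeq tables, GRCh38.p14; no protein table was used here.

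KCNK1 and the lists were chosen with earlier results of these data known. The genes named are KCNK1, the measured K2P family, list members called with p73 shRNA or with the largest differences, the 10 nearest profiles and the genes lower than KCNK1; KCNK7, KCNK15 and KCNN4 are given by array after their values were seen. Alternatives were quantile normalization, pseudocounts at the 5th and 40th percentile, a brightness filter left out or set at the 70th percentile, averaging a gene's probe sets, leaving the other factor or the intensity trend out, and the other KCNK1 probe set. Figures were drawn with matplotlib 3.10.9.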

Additional observations from a re-analysis of the deposited data

Results flagged for a closer look

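PIDD1, a p53 family target called as higher with p73 shRNA, moved in opposite directions with confluence. The log2 ratio of 100% over 40% was -0.47 with p73 shRNA and 0.92 with ns shRNA, a difference of -1.39. It read 178 and 251 with p73 shRNA and 119 and 57.1 with ns shRNA at 100% and 40% confluence. Each ratio comes from 2 arrays, and the difference was not tested.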

How the results depend on the processing

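The fall of KCNK1 with p73 shRNA kept its direction under all alternatives that gave a value, from -2.16 with the pseudocount at the 5th percentile to -1.02 with the dimmer probe set. It passed the test after quantile normalization, with both other pseudocounts and without the intensity trend, and did not pass without the brightness filter (-1.98, limma adjusted p 0.132), with confluence left out (-1.98, limma adjusted p 1.00) or with the dimmer probe set (-1.02, limma adjusted p 0.383). The rise with confluence lost its call with the hairpin left out (1.40, limma adjusted p 0.193) and with the dimmer probe set (1.00, limma adjusted p 0.128). In a fit of 22215 probe sets with no filter, the brighter set had a limma adjusted p of 0.261 for the hairpin and 0.0315 for confluence. Without the intensity trend these were 0.795 and 0.236 (limma), and 0 probe sets were called in either comparison. The step between confluent p73 shRNA cells and 40% confluent ns cells stayed below 0 and did not pass under any alternative. With the filter at the 70th percentile, and with the mean of probe sets, KCNK1 fell below the filter and gave no value. Without the filter the error of KCNK1 was larger (SE 0.33) and more genes shared the adjustment. Its unadjusted limma p was 1.76e-04 there, against 2.88e-11 among the filtered genes, so the p-value moved before any adjustment. The filtered p-value came from a fit with infinite prior degrees of freedom. The prior degrees of freedom without the filter are not given here. The cause of the lost calls was not tested.

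Of 6759 genes 184 were called with p73 shRNA, against 105 after quantile normalization, 40 with the mean of probe sets, 74 without the intensity trend, 4 without the brightness filter and 0 in limma when confluence was dropped, where 58 had an unadjusted p below 0.05. At confluence 2471 were called, against 1555 without the filter and 1345 with the hairpin left out. In the middle comparison 1182 were called, against 470 without the filter. Values were recomputed for 30 genes other than KCNK1, for the hairpin mostly genes already called, so few could gain a call. Of these values 223 kept their side of the threshold, 67 lost a call and 1 gained one. KCNMA1 at confluence turned to -0.024 with the mean of probe sets, against 0.17. Of the 10 nearest genes 8 to 10 stayed among the nearest under quantile normalization and the other pseudocounts. The additive model already compares hairpins within a confluence stage, and the values with confluence left out are its unpaired form; the labels give no replicate numbers to block on. No array could be left out because the model has 1 residual degree of freedom.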

Other observations

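Of 9 calcium and TRP channel genes past the brightness filter 5 rose at 100% confluence and none fell (limma), where 20.4% of all genes tested rose, and their median log2 ratio was 0.71 against 0.01 for all genes. They were PIEZO2 (1.48 with p73 shRNA and 1.52 with ns shRNA), ORAI3, a pore subunit of store-operated calcium channels (average 1.38), the voltage-gated calcium channel subunits CACNB3 (0.82) and CACNA1A (0.71), and the cation channel TRPC1 (0.74). The calls of CACNA1A and TRPC1 were lost without the filter (limma adjusted p 0.0542 and 0.0895), and that of TRPC1 also with the hairpin left out (limma adjusted p 0.0536). ORAI3 read 555 and 248 with p73 shRNA and 569 and 174 with ns shRNA at 100% and 40%. PIEZO2, and SLC12A7 of the pump and cotransporter genes, passed the filter through their 100% arrays, since their means at 40% lay under it. Among the 6 pump and cotransporter genes 2 rose and 3 fell, where 20.4% and 16.1% of all genes tested did: the sodium pump subunit ATP1B1 (0.44) and SLC12A7 (0.86) rose, and ATP1B3 (-0.39), FXYD5 (-0.48), a regulator of the sodium pump, and SLC12A2 (-0.95), a sodium-potassium-chloride cotransporter, fell. Of these 5 calls only that of FXYD5 held under every alternative that gave a value: ATP1B1, ATP1B3 and SLC12A7 lost theirs with the hairpin left out (limma adjusted p 0.122, 0.136 and 0.133), ATP1B3, SLC12A7 and SLC12A2 without the filter (0.109, 0.138 and 0.0565), ATP1B1 and ATP1B3 without the intensity trend (0.0646 and 0.106), SLC12A7 after quantile normalization (0.0613) and ATP1B1 with the mean of probe sets (0.150).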
